A study of Ovis aries with 18 samples.

Results

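The 4 genes described here were chosen because they stood much higher in long than in short photoperiod in these same data. They are SHH (ENSOARG00000006942), VMO1 (ENSOARG00000007112), DCDC2 (ENSOARG00000007485) and MYPN (ENSOARG00000004925), 4 of the 25197 gene IDs in the count files, and all 4 were among the 13446 genes that passed the filter on low counts. Symbols were taken from the study's own gene lists, which pair the same Ensembl IDs with names, since the count files hold IDs alone. Total RNA was taken from the pituitary's pars tuberalis (PT), a thin sheath around its stalk just below the hypothalamus, in neutered male Scottish Blackface sheep. A daily 8 h light phase with 16 h darkness made up short photoperiod (SP), kept for 4 weeks (SP4) or 16 weeks (SP16). Long photoperiod (LP) had a 16 h light phase with 8 h darkness and was kept for 4 weeks (LP4) or 22 weeks (LP22), with 4 animals in each group. All animals were castrates, so no group carried testicular steroids, and the late time points of SP and LP were not matched in duration.

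The PT is dense in melatonin receptors and reads day length from the duration of the nightly melatonin signal. Under long days its thyrotroph cells switch on TSHB, the β subunit of thyrotropin, which acts on neighbouring tanycytes of the hypothalamus. SHH, sonic hedgehog, is a secreted morphogen that binds the receptor PTCH1 and thereby frees SMO to signal, and it patterns the pituitary and nervous system during development. VMO1 is a secreted protein first known from the outer layer of the vitelline membrane of bird eggs. DCDC2 is a doublecortin-domain protein that binds microtubules and is found at the primary cilium. MYPN, myopalladin, is best known as a protein that holds actin-binding partners at the Z-disc of striated muscle.

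Levels are given as gene counts per 1000000 (CPM), scaled between libraries by TMM, and n is the number of animals. Both libraries of SP4 animal 1 were summed, and LP4 animal 2 was taken from its repeat library alone. The TMM factor of LP4 animal 2 was 0.633, which raises its CPM, against 0.965 to 1.08 in the other animals used. The libraries used held 1730773 to 4119508 gene counts each, and 3 counts were worth 0.535 to 1.71 CPM per animal. Before groups were compared, 2 libraries stood apart. Across genes, the median correlation to the animals used was 0.439 for the library labelled LP4 animal 3 and 0.706 for the first library labelled LP4 animal 2, against 0.922 to 0.953 among those animals. Neither entered the group values below; LP4 therefore holds 3 animals, and values of both libraries are given apart.

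Thyrotroph genes were checked against the labels. TSHB stood at 277 to 538 CPM in the 3 LP4 animals used and at 147 to 320 CPM in LP22, against at most 21.0 CPM in any SP animal. CHGA, chromogranin A of secretory granules, stood at 891 to 1493 CPM in SP, 138 to 354 CPM in LP22 and 406 and 431 CPM in LP4 animals 4 and 1, but at 991 CPM in the LP4 animal 2 library used, within the SP range. CGA, the common α subunit of the pituitary glycoprotein hormones, was present in all 15 animals used, from 255 to 1809 CPM. Hormone genes of the pars distalis, the adjoining main lobe, were also present (GH1, PRL, POMC, LHB and FSHB, 5 of 5). Their summed level ran from 82.8 to 7861 CPM in SP4, from 84.9 to 5782 CPM in SP16, from 112 to 509 CPM in LP4 and from 595 to 5000.5 CPM in LP22. It was thus uneven between animals in every group and lower in each LP4 animal than in each LP22 animal.

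All 4 genes were higher in each of the 7 LP animals used than in each of the 8 SP animals. Over all genes tested, 0.952% showed this separation. The early groups alone (LP4 above SP4) were separated in 6.01% of genes and the late groups (LP22 above SP16) in 5.35%. The 4 genes were chosen for these contrasts, so nothing is read from their count. The narrowest gap was that of SHH, whose lowest LP animal (3.99 CPM, LP22 animal 2) lay 1.56-fold above its highest SP animal (2.56 CPM, SP16 animal 4). The widest was that of VMO1, at 31.4 against 7.97 CPM, a ratio of 3.94. In bulk RNA a gene can stand lower because fewer cells of a type are present or because each holds less RNA, and these cannot be told apart.

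**Figure D1:**
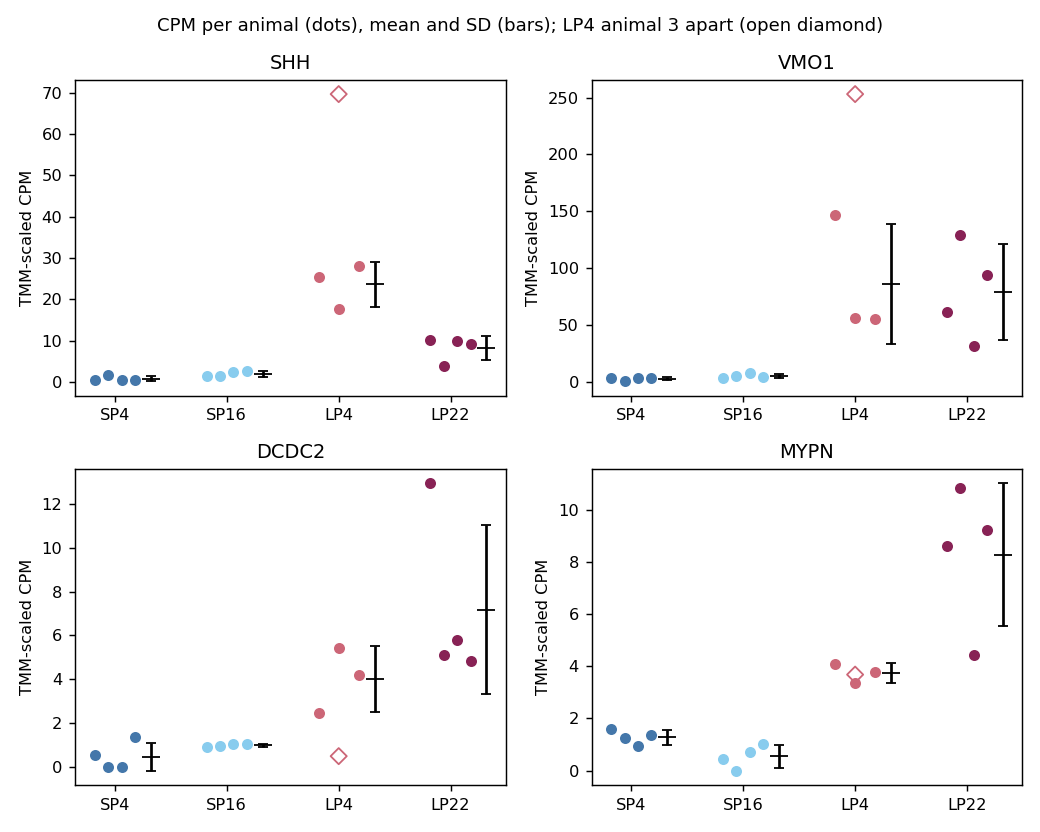
TMM-scaled CPM (y axis, linear) of each gene in each animal (dots) by group (x axis), with the group mean and SD as a bar; LP4 animal 3 is an open diamond outside the mean. SHH peaks in LP4, MYPN is highest in LP22, and LP4 animal 3 is far above the other animals for SHH (69.7 CPM) and VMO1 (253 CPM) but at SP level for DCDC2 (0.49 CPM).

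SHH was close to silent in SP4, with 3, 4, 1 and 1 counts in animals 1 to 4, or 0.535, 1.65, 0.463 and 0.451 CPM. In SP16 the 4 animals held 3, 3, 7 and 5 counts, or 1.36, 1.46, 2.42 and 2.56 CPM. Of the 8 SP animals, 5 held 3 or fewer counts, so single SP values are near the limit that this depth can resolve. In LP4 the level was 25.3, 17.6 and 28.1 CPM in animals 1, 2 and 4, and in LP22 it was 10.1, 3.99, 9.89 and 9.23 CPM in animals 1 to 4. Every LP4 animal lay above every LP22 animal, so SHH was highest after 4 weeks of LP and lower after 22 weeks. The group means were 0.775 ± 0.584 CPM in SP4 and 1.95 ± 0.631 CPM in SP16 (SD, n = 4 each). They were 23.7 ± 5.45 CPM in LP4 (SD, n = 3) and 8.29 ± 2.89 CPM in LP22 (SD, n = 4). A gene model of another sheep assembly (RefSeq, ARS-UI_Ramb_v3.0) has 2 long noncoding RNA genes that overlap SHH and 0 that overlap the other 3 genes; whether counting used strand is not given in the sources used here, so reads of these transcripts cannot be told apart from those of SHH. The order of group means was SP4, SP16, LP22 and LP4, and only the first neighbours in it, SP4 and SP16, overlapped.

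VMO1 was low in every SP animal and far higher, with a wide spread, in both LP groups. In SP4 it stood at 3.21, 0.412, 3.24 and 3.16 CPM in animals 1 to 4 (18, 1, 7 and 7 counts), and in SP16 at 3.17, 4.85, 7.97 and 4.1 CPM. LP4 animals 1, 2 and 4 held 147, 56.1 and 55.0 CPM, and LP22 animals 1 to 4 held 61.3, 129, 31.4 and 93.7 CPM. The LP groups overlapped almost wholly and each held a wide spread between animals. Group means were 2.51 ± 1.40 CPM in SP4 and 5.02 ± 2.08 CPM in SP16 (SD, n = 4 each), against 85.9 ± 52.6 CPM in LP4 (SD, n = 3) and 78.9 ± 42.2 CPM in LP22 (SD, n = 4). The order was SP4, SP16, LP22 and LP4, with overlap between both SP groups and between both LP groups.

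DCDC2 was counted few times in every animal. It had 3, 0, 0 and 3 counts in SP4 animals 1 to 4 and 2, 2, 3 and 2 counts in SP16, so all 8 SP animals were at or under 3 counts. The SP levels were 0.535, 0, 0 and 1.35 CPM in SP4 and 0.905, 0.971, 1.04 and 1.02 CPM in SP16. For the SP4 animals at 0, the one-sided limit of 3 counts set for a count of 0 was 1.24 CPM (animal 2) and 1.39 CPM (animal 3), and the upper end of the two-sided exact Poisson interval was 1.52 and 1.71 CPM. LP4 animals 1, 2 and 4 held 2.45, 5.44 and 4.2 CPM, and LP22 animals 1 to 4 held 12.9, 5.13, 5.80 and 4.84 CPM. LP22 animal 1 stood well above the other LP animals, and the LP groups overlapped. Mean levels in SP were 0.472 ± 0.640 CPM (SP4) and 0.985 ± 0.0606 CPM (SP16; SD, n = 4 each), and those in LP were 4.03 ± 1.5 CPM (LP4, SD, n = 3) and 7.18 ± 3.86 CPM (LP22, SD, n = 4). The order was SP4, SP16, LP4 and LP22, with overlap within SP and within LP.

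MYPN was lowest in SP16 and highest in LP22. SP4 animals 1 to 4 had 9, 3, 2 and 3 counts, or 1.60, 1.24, 0.926 and 1.35 CPM, and SP16 animals had 1, 0, 2 and 2 counts, or 0.453, 0, 0.693 and 1.02 CPM. For the SP16 animal at 0, animal 2, the same limits were 1.46 and 1.79 CPM. In LP4 the levels were close together, at 4.08, 3.35 and 3.78 CPM in animals 1, 2 and 4. In LP22 they were 8.63, 10.8, 4.43 and 9.23 CPM in animals 1 to 4, and every LP22 animal lay above every LP4 animal. The margin was narrow, between LP22 animal 3 (13 counts) and LP4 animal 1 (10 counts). Their exact Poisson intervals overlapped, at 2.36 to 7.58 and 1.96 to 7.51 CPM. Mean levels in SP were 1.28 ± 0.282 CPM (SP4) and 0.542 ± 0.431 CPM (SP16; SD, n = 4 each), and those in LP were 3.74 ± 0.368 CPM (LP4, SD, n = 3) and 8.28 ± 2.73 CPM (LP22, SD, n = 4). The order was SP16, SP4, LP4 and LP22. It was the reverse of that of SHH in both photoperiods, and only SP16 and SP4 overlapped in it.

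Early and late LP differences are given side by side. LP against SP is the contrast that chose them, so these values are descriptions and no p-value is given. Each SE was derived from edgeR's quasi-likelihood F statistic of the same contrast. It is thus a rough guide to spread and no separate support. DESeq2 gave SHH an SE of 0.57 in LP4 against SP4. For SHH the log2 fold change was 4.92 (SE 0.38) in LP4 against SP4 and 2.08 (SE 0.37) in LP22 against SP16. For VMO1 it was 5.01 (SE 0.54) early and 3.88 (SE 0.49) late, and without LP4 animal 1, the highest of its group, the early value was 4.38. For DCDC2 the early and late values were close, at 2.94 (SE 0.64) and 2.79 (SE 0.53). Without SP4 animal 4 its early value was 3.61. For MYPN it was 1.44 (SE 0.44) early and 3.77 (SE 0.47) late. Counts in SP were few, so the size of the folds was also taken from summed counts with an exact 95% interval that covers counting error only. SHH had 171 counts in LP4 and 9 in SP4, a scaled ratio of 32.7 (16.8 to 72.6), and 78 in LP22 and 18 in SP16, a ratio of 4.36 (2.59 to 7.74). MYPN had 27 and 17 counts early, a ratio of 2.73 (1.43 to 5.34), and 71 and 5 counts late, a ratio of 14.3 (5.85 to 45.4). VMO1 gave ratios of 32.5 (22.9 to 47.6) early and 13.8 (10.3 to 19.0) late, and DCDC2 gave 8.31 (3.39 to 24.5) and 7.16 (3.54 to 16.4). These intervals leave out the spread between animals, so early and late ratios are not compared by them.

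**Figure D2:**
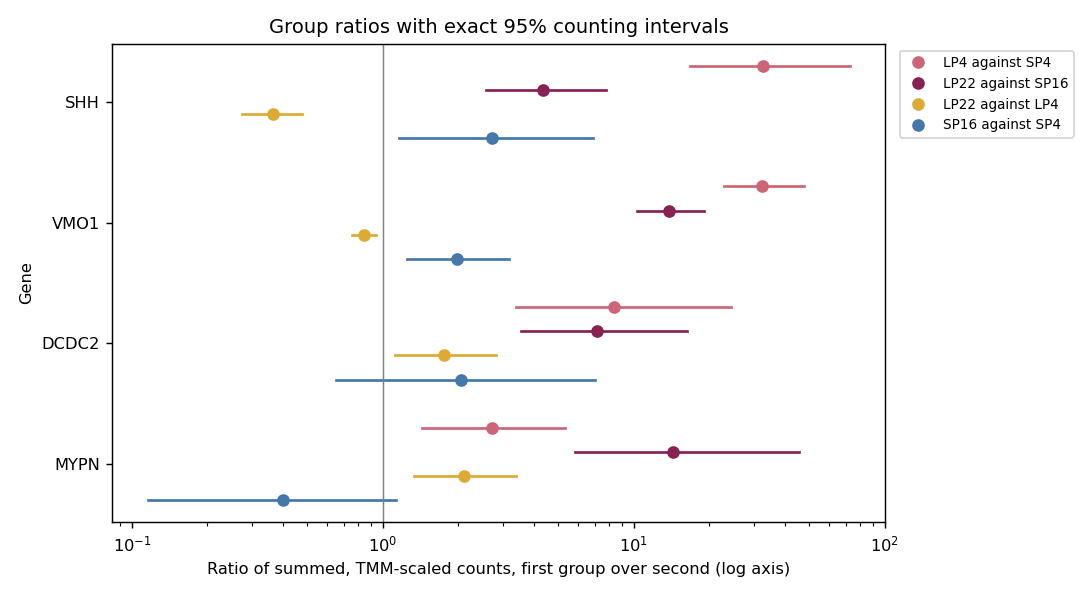
Ratios of summed TMM-scaled counts (x axis, log scale) for each gene (y axis) in 4 group comparisons, with lines for exact 95% counting intervals. The ratios of SHH are 32.7 in LP4 against SP4 and 4.36 in LP22 against SP16, and those of MYPN are 2.73 and 14.3; the lines leave out the spread between animals.

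Ranked by the mean of both log2 fold changes over all 13446 genes, the 4 were not the top 4. VMO1 ranked 2 with a mean of 4.44, SHH ranked 4 with 3.50, DCDC2 ranked 10 with 2.87 and MYPN ranked 13 with 2.60. TSHB ranked 1 with 5.73, and TAC1, the precursor of substance P, ranked 3 with 3.89. Between SHH and DCDC2 lay SNORA5 (3.14), an unnamed gene (ENSOARG00000011488, 3.12), SNTN (3.04), GPR139 (2.97) and DCT (2.93). Of these, all but GPR139 lacked a full separation of the LP animals from the SP animals. KAL1 (2.76) and VGF (2.61) lay between DCDC2 and MYPN, and RD3L, just after MYPN, had 2.48. In the early contrast alone SHH ranked 5, VMO1 4, DCDC2 13 and MYPN 114, and in the late one they ranked 38, 11, 23 and 12.

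Duration within each photoperiod was a contrast that the choice of genes did not use, although it shares animals with those that were used. It was tested by edgeR's quasi-likelihood test with Benjamini-Hochberg adjustment over all genes. None of the 4 passed an adjusted p of 0.05, for LP22 against LP4, for SP16 against SP4 or for the interaction (0 of 4 each). Few genes passed at all, 0.0297%, 0.00744% and 0.0892% of those tested. An unadjusted p under 0.05 was reached by SHH and MYPN in LP22 against LP4, as by 8.71% of all genes. Both also reached it in the interaction, as did 10.5% of all genes, and SHH alone did so in SP16 against SP4, as did 10.7%. The interaction is the late minus the early LP difference, and both of its parts entered the choice of the genes. MYPN and DCDC2 met the filter on low counts only through their LP22 animals. Their tests that use LP22 therefore depend in part on that filter. With no filter, the edgeR adjusted p for LP22 against LP4 was 0.41 for MYPN and 0.749 for DCDC2.

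For SHH, LP22 against LP4 gave a log2 fold change of -1.48 (SE 0.27, edgeR adjusted p = 0.0869), with 4 of 4 LP22 animals below 3 of 3 LP4 animals. Over all genes, 3.61% had every LP4 animal above every LP22 animal. DESeq2 on the same animals gave an adjusted p of 0.0293, and the quasi-likelihood test with no filter on low counts gave 0.0278, so this call turns on the test and the filter. Its interaction, (LP22 − SP16) − (LP4 − SP4), was -2.84 (SE 0.61, adjusted p = 0.0895). Of 15 fits that each left out 1 animal, it passed only without LP4 animal 2 (edgeR adjusted p = 0.0464), and adjusted p reached 0.246. Its SP16 against SP4 value was 1.37 (SE 0.54, adjusted p = 0.361), and the summed counts of 18 and 9 gave a ratio of 2.72 (1.16 to 6.88).

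For MYPN, LP22 against LP4 gave 1.10 (SE 0.36, adjusted p = 0.347), with all LP22 animals above all LP4 animals, a separation seen in 3.76% of genes. MYPN met the filter only through LP22, so this separation is a description. Between SP16 and SP4 0 of the 4 genes were fully separated, against 3.35% of all genes with SP16 higher and 3.18% with SP4 higher. The interaction was 2.33 (SE 0.70, adjusted p = 0.259), opposite in sign to that of SHH. SP16 against SP4 gave -1.22 (SE 0.60, adjusted p = 0.475). VMO1 gave -0.15 (SE 0.38, adjusted p = 0.94) for LP22 against LP4 and 0.98 (SE 0.75, adjusted p = 0.695) for SP16 against SP4. DCDC2 gave 0.82 (SE 0.45, adjusted p = 0.634) and 0.97 (SE 0.79, adjusted p = 0.721). Their interactions were -1.12 (SE 0.84, adjusted p = 0.685) for VMO1 and -0.15 (SE 0.68, adjusted p = 0.974) for DCDC2. The summed pars distalis hormone genes were lower in each LP4 than in each LP22 animal, as given above. None of the 5 genes passed alone (edgeR adjusted p 0.573 or more). PTPRC, a gene of immune cells, stood at 13 ± 2.93 CPM in LP4 (SD, n = 3) and 34.3 ± 21.1 CPM in LP22 (SD, n = 4). Its groups overlapped (edgeR adjusted p = 0.409). The part of the hormone genes or of PTPRC in the values of the 4 genes was not tested.

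The libraries left out of the groups gave an uneven picture of the 4 genes. The library labelled LP4 animal 3 held TSHB at 1.23 CPM, below every SP animal, CGA at 30.9 CPM and CHGA at 1762 CPM, above every SP animal. Its TSHB and CHGA go against its LP label. Its CGA lay below all 15 animals used, SP and LP alike (255 to 1809 CPM), so it matches neither photoperiod. Its summed GFAP, VIM and MBP, genes of glia and tanycytes, stood at 941 CPM, against 184 to 557 CPM in the animals used. VIM (649 CPM) and MBP (48.8 CPM) lay above all of these animals. GFAP (244 CPM) lay within their range, which reached 245 CPM. Genes took 52.6% of its aligned reads, against 15.3 to 21.3% in the libraries used. The part of the glial genes or of this share in its values was not tested. In the same library SHH stood at 69.7 CPM (284 counts) and VMO1 at 253 CPM (1032 counts), 2.48-fold and 1.73-fold above the highest of the 7 LP animals used. MYPN was at 3.68 CPM, within the LP4 range, and DCDC2 at 0.49 CPM (2 counts), within the SP range. With this animal in LP4, means were 35.2 ± 23.4 CPM for SHH, 128 ± 94.0 CPM for VMO1, 3.15 ± 2.15 CPM for DCDC2 and 3.72 ± 0.302 CPM for MYPN (SD, n = 4 each).

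The libraries labelled as LP4 animal 2 also differed. TSHB was at 9.07 CPM in the first and 277 CPM in the repeat, and CGA at 247 and 794 CPM. VMO1 was 2.72-fold higher in the first library, at 152 against 56.1 CPM, with exact 95% counting intervals of 130 to 177 and 47.0 to 66.5 CPM. SHH was at 19.0 against 17.6 CPM, MYPN at 4.53 against 3.35 CPM and DCDC2 at 2.72 against 5.44 CPM. For these 3 genes the counting intervals of the first and repeat library overlapped. The libraries of SP4 animal 1 held 4 and 14 counts of VMO1, 2 and 1 of SHH, 0 and 3 of DCDC2 and 3 and 6 of MYPN in the first and the repeat.

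**Figure D3:**
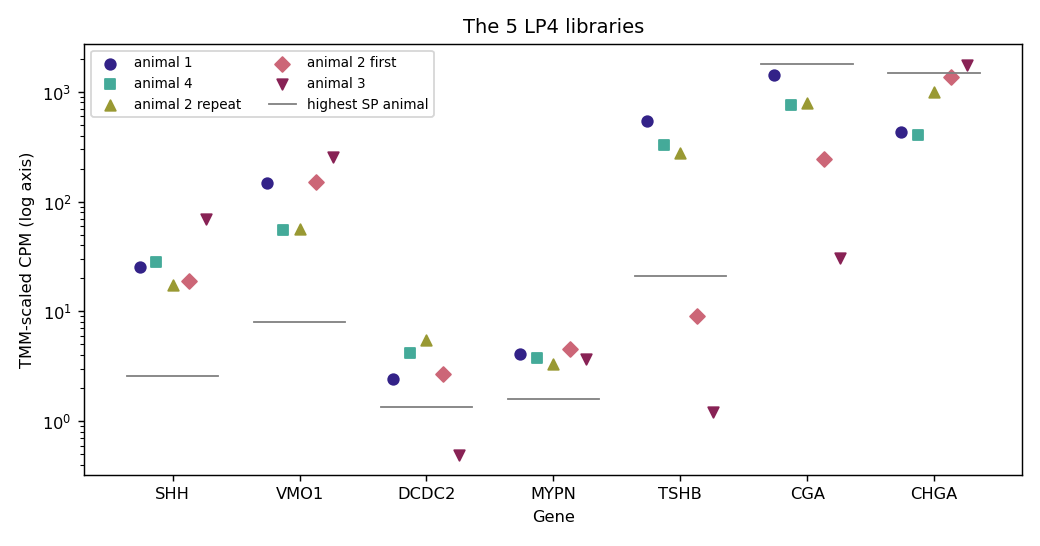
TMM-scaled CPM (y axis, log scale) of the 4 genes and of TSHB, CGA and CHGA (x axis) in the 5 LP4 libraries (symbols), with a grey line at the highest SP animal. SHH, VMO1 and MYPN lie above the line in all 5 libraries, while TSHB lies below it in animal 3 (1.23 CPM) and in the first library of animal 2 (9.07 CPM).

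The genes with the most similar profiles were sought among the 13446 genes by the root mean square difference of log2 CPM over the 15 animals, each gene centred on its own mean. A shared order of groups follows from this search and is not a separate result. The closest to SHH was KAL1, an extracellular matrix protein that guides axons, at a difference of 0.52. KAL1 stood at 1.34 ± 0.842 CPM in SP4, 3.65 ± 0.707 CPM in SP16, 16.9 ± 1.02 CPM in LP4 and 13.4 ± 1.72 CPM in LP22 (SD; n = 4, 4, 3 and 4). Next were VGF, a precursor of secreted neuropeptides, at 0.72, and DCT, an enzyme of melanin synthesis, at 0.76. DCT held 104 ± 53.9 CPM in LP4 (SD, n = 3) and 14.1 ± 6.45 CPM in LP22 (SD, n = 4), a lower level late in LP as for SHH. VGF held 152 ± 63.3 CPM in LP4 (SD, n = 3) and 132 ± 48.0 CPM in LP22 (SD, n = 4). KAL1 and VGF thus also had lower means late in LP, by less than DCT.

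VMO1 had no close match: VGF was nearest at 1.12, then GPR139, a G protein-coupled receptor, at 1.20 and LRRC17 at 1.24. The closest to DCDC2 were VCAN, the matrix proteoglycan versican, at 0.52, PCSK1, a convertase that cuts prohormones, at 0.53 and NGFR, the low-affinity neurotrophin receptor, at 0.58. VCAN stood at 242 ± 134 CPM in SP4, 282 ± 83.5 CPM in SP16, 639 ± 195 CPM in LP4 and 926 ± 208 CPM in LP22 (SD; n = 4, 4, 3 and 4). MYPN was nearest to RD3L at 0.37, EZH2, the histone methyltransferase of the Polycomb system, at 0.37 and SLC12A1, a sodium-potassium-chloride cotransporter, at 0.38. EZH2 stood at 37.8 ± 5.04 CPM in SP4, 23.4 ± 9.84 CPM in SP16, 113 ± 38.7 CPM in LP4 and 165 ± 26.4 CPM in LP22 (SD; n = 4, 4, 3 and 4). Its group order was that of MYPN, which the search selects for. The 4 genes were not each other's nearest: the closest pair among them, DCDC2 and MYPN, lay 0.72 apart. A prior count of 2 was added before logs were taken, which shrinks differences of genes with few counts.

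**Figure D4:**
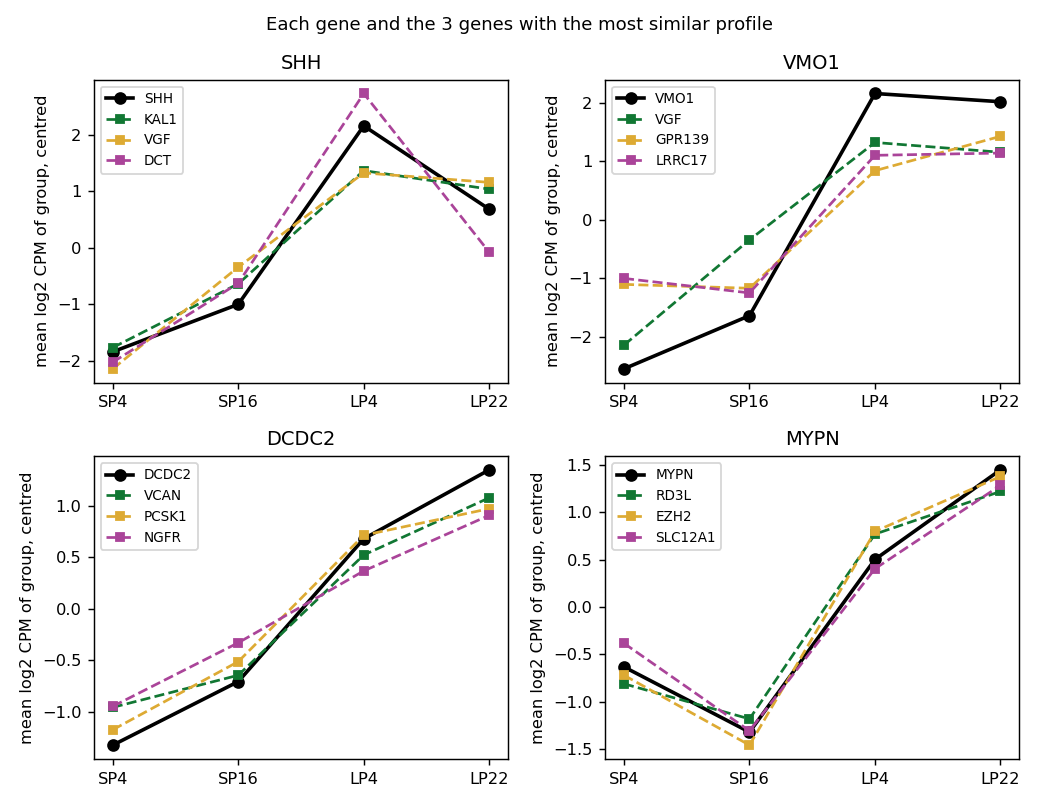
Mean log2 CPM of each group (y axis), centred on the mean of the 4 groups, for each gene (solid line) and its 3 most similar genes (dashed lines) by group (x axis). SHH and its 3 neighbours peak in LP4, and MYPN and its 3 neighbours are lowest in SP16 and highest in LP22. The neighbours were picked for this likeness in the same animals.

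Other genes of these roles were looked up from lists of symbols, which could be located only where the study's gene lists gave an ID. Those lists were chosen by the study on these samples, so their counts are not independent evidence. Of 22 Hedgehog pathway genes SHH alone had an ID, and the receptors and targets of SHH were not analysed here. Of 9 photoperiod genes of the PT or of its pathway to the hypothalamus, 8 were tested. DIO2 is among them, and the study places its regulation in hypothalamic tanycytes. Which tissue gave its RNA here was not tested. In LP4 against SP4, TSHB (log2 fold change 6.47, SE 0.51, adjusted p = 8.48e-07) and DIO2, the enzyme that makes active thyroid hormone (1.11, SE 0.23, adjusted p = 0.016), were higher and 0 were lower, where 1.22% of all genes were higher and 0.573% lower. In LP22 against SP16, where 1.73% were higher and 1.49% lower, TSHB and TSHR, the thyrotropin receptor, were higher, and CHGA, the melatonin receptor MTNR1A and the transcription factor TEF were lower. TSHB had a log2 fold change of 5.0 (SE 0.47, adjusted p = 7.64e-06) there and CHGA had -2.76 (SE 0.30, adjusted p = 2.36e-05). EYA3 and CGA passed in neither.

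Of 7 genes the study plotted beside SHH, for development, cell communication and cell movement, KAL1 rose in both contrasts. Its log2 fold change was 3.65 (SE 0.29, adjusted p = 8.48e-07) early and 1.88 (SE 0.25, adjusted p = 0.000213) late. The interaction of KAL1 did not pass (-1.77, SE 0.41, adjusted p = 0.114). Of the 7, 3 were higher and 2 lower in LP4 than in SP4, and 1 was higher and 2 lower in LP22 than in SP16. Of 20 sarcomere genes, listed for comparison with MYPN, 2 were tested: TTN, the giant spring protein of the sarcomere, was higher in LP22 than in SP16 (1.12, SE 0.27, adjusted p = 0.0242), and MYOZ1 passed in neither contrast. Of 20 cilium genes, listed for comparison with DCDC2, 6 were tested. The dynein heavy chain DNAH8 was higher in LP4 than in SP4 (1.65, SE 0.34, adjusted p = 0.0154), the dynein heavy chain DNAH5 was lower there (-1.31, SE 0.20, adjusted p = 0.00192) and the tektin TEKT1 was lower in LP22 than in SP16 (-1.38, SE 0.34, adjusted p = 0.0306).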

How the data were processed

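Total RNA of the PT from 16 animals was sequenced in 18 libraries, animal 1 of SP4 and animal 2 of LP4 having 2 each. The deposited values are raw counts per gene, which the authors made by aligning reads to sheep genome Oar v3.1 with Bowtie and counting with HTSeq. The strand setting is not given in the sources used here, and the submitters' notes give no versions for these tools. HTSeq's summary rows were left out; its no-feature row held 78.6 to 84.5% of aligned reads in the libraries used. Low gene shares and few counts per library widen the error of low genes.

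Counts were filtered (filterByExpr, minimum count 10, minimum total 15), scaled by TMM and fitted with edgeR 4.0.16 in R 4.3.3 (glmQLFit, glmQLFTest) over 15 animals in 4 groups, with Benjamini-Hochberg adjustment over 13446 genes at 0.05. LP4 animal 3 was left out of that fit and put on the same CPM scale. Means are over animals with SD. Ratios of summed counts carry exact binomial 95% intervals, single libraries exact Poisson intervals, and a count of 0 allows 3 counts; these cover counting error only. The labels give separate animals per group, and p-values weigh differences of group means against the spread between animals. That spread was estimated over the 4 groups together, with information shared between genes. Each edgeR SE is the absolute log2 fold change divided by the square root of the quasi-likelihood F statistic.

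Named were the 4 genes, the 3 genes most like each, those ranking beside them, and genes of lists by role. The members and lists were chosen with earlier results of these data known. Of the 25197 IDs, 1259 had a symbol in the study's lists of changed genes, from which names alone were taken, and 0 were in the RefSeq table. No sequences were used here, so promoters were not searched. Alternatives were other scalings, filters, tests (DESeq2 1.42.0, robust dispersion), libraries, animals, a replicate block and leaving out each animal. On simulated data for LP22 against LP4 (13216 genes), 68.7% of 99 genes changed by 1 on the log2 scale and 99% of 100 changed by 2 were recovered. In the same data 8 unchanged genes were called. The simulation gave every gene the same spread between animals and no photoperiod difference, so it does not give the power for the 4 genes. Plots used matplotlib 3.10.9 (Python 3.11.15).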

Additional observations from a re-analysis of the deposited data

Results flagged for a closer look

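Of 12 groups of 4 animals examined, 1 animal stood far from the other 3 in 4 groups, where chance gives this in about 1 in 20 groups of normally spread values, which low counts are not. SP4 animal 2 was high for SHH (1.65 CPM, 4 counts) and low for VMO1 (0.412 CPM, 1 count), LP22 animal 2 was low for SHH (3.99 CPM) and LP22 animal 1 was high for DCDC2 (12.9 CPM). For SP4 animal 2 the exact Poisson interval of SHH (0.449 to 4.22 CPM) covered the other 3 animals, and that of VMO1 (up to 2.30 CPM) overlapped theirs.

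The libraries kept out of the LP4 means also held levels above every SP animal. In the library labelled LP4 animal 3 these were SHH at 69.7 CPM (highest SP animal 2.56 CPM), VMO1 at 253 CPM (7.97 CPM) and MYPN at 3.68 CPM (1.60 CPM). In the first library labelled LP4 animal 2 they were SHH at 19.0 CPM, VMO1 at 152 CPM, MYPN at 4.53 CPM and DCDC2 at 2.72 CPM, the last from 3 counts and against a highest SP animal of 1.35 CPM.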

How the results depend on the processing

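With no filter on low counts and with DESeq2, 1 of the 4 genes passed for LP22 against LP4, SHH in both (log2 fold change -1.47 and -1.49). For the interaction, leaving out 1 animal gave 0 to 1 genes; the 1 was SHH without LP4 animal 2 (-3.02). Adjusted p for SHH ranged over the other alternatives from 0.0278 to 0.36 (LP22 against LP4) and from 0.0511 to 0.583 (interaction, DESeq2 not included). With each animal left out, its edgeR adjusted p ran from 0.0568 to 0.197 (LP22 against LP4) and from 0.0464 to 0.246 (interaction). SP16 against SP4 gave 0 genes under every alternative run. DESeq2 gave no adjusted p for SHH, DCDC2 and MYPN there or in the interaction, so its 0 rests on VMO1 alone.

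The SHH value for LP4 against SP4 was 5.49 with LP4 animal 3 kept and 5.50 with repeat libraries also summed. For VMO1 the same settings gave 5.62 and 5.70. Leaving out each animal gave 4.66 to 5.44 for SHH, 4.38 to 5.25 for VMO1 (4.38 without LP4 animal 1), 2.64 to 3.61 for DCDC2 (3.61 without SP4 animal 4) and 1.35 to 1.62 for MYPN in that contrast, and 2.36 to 2.94 for DCDC2 in LP22 against SP16. Signs turned for uncalled values only. With each animal left out, VMO1 in LP22 against LP4 ran from -0.48 to 0.48 (0.48 without LP4 animal 1, 0.13 without LP22 animal 3); it was -0.70 with LP4 animal 3 kept and -0.79 with repeats also summed. The VMO1 interaction was -0.49 without LP4 animal 1. With each animal left out, the DCDC2 interaction ran from -0.81 to 0.15 (0.15, 0.12 and 0.13 without SP4 animal 2, SP4 animal 3 and LP4 animal 2), and was 0.27 with LP4 animal 3 kept, 0.32 with repeats also summed and 0.069 from the repeat library of SP4 animal 1. The cause was not tested.

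Animal numbers gave no clear sign of pairing: same-numbered animals had deviations correlated at -0.163 to 0.172 over 21 pairs, 3 of them over 0.1. Their mean was -0.010, against 0.0037 for pairs with different numbers. Deviations were taken from means of 3 or 4 animals, so a shared block is not excluded. With the number as a replicate block, 0 of the 4 genes passed in any duration contrast, VMO1 in LP22 against LP4 became 0.051, and genes called overall were 1 (SP16 against SP4), 3 (LP22 against LP4) and 7 (interaction). Overall calls for these contrasts were 1, 4 and 12 in the 15 animals, 31, 32 and 38 with no filter, 36, 14 and 40 with DESeq2, and 0, 0 and 0 with LP4 animal 3 kept. Few SP counts limit the precision of every fold against SP.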
